A study of Caenorhabditis elegans with 2 samples.

Results

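The binding sites described are the HIF-1 ChIP-seq peaks that lie in a promoter shared by neighbouring genes of Caenorhabditis elegans. A peak belonged here when its summit, the position of highest signal, fell in the promoter windows of at least 2 different protein-coding genes. A window reached from 1000 bp upstream to 200 bp downstream of an annotated transcript start. Summits within 250 bp of a tRNA, snRNA, snoRNA, rRNA or miRNA gene were left out, which removed 18 of 585. That left 567 of the 3531 peaks reproducible between replicates by the irreproducible discovery rate (IDR). In 489 the starts pointed away from each other (divergent pairs), in 40 both genes lay on the same strand, in 37 there were 3 or more genes, and in 1 the transcripts overlapped at their heads. The comparison set was the 1359 peaks, chosen in the same way, whose summit lay in the window of a single gene.

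The worms were transgenic strain OR3349, which expresses HIF-1 with GFP-FLAG fused to its C terminus, and chromatin was precipitated through the GFP tag. Whole larvae of both sexes, pooled, were collected as L4, 52 hours after their release from the starved L1 arrest used to synchronize them. There were 2 biological replicates of this 1 group and no second condition, so nothing here compares hypoxia with normal oxygen. The oxygen level was not given in the sources used here. A whole larva mixes all tissues, and a signal from a tagged transgene does not say in which cells the protein sat.

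HIF-1 is the alpha subunit of the hypoxia-inducible factor. It pairs with AHA-1 and, when oxygen is plentiful, is hydroxylated by EGL-9 and marked for destruction through VHL-1. The pair recognises a short core, ACGTG or GCGTG, the heart of the hypoxia response element. Worm genes are packed tightly. Many neighbours are transcribed outward from one intergenic region, and others follow each other in operons that are read from one upstream promoter. A peak between divergent genes therefore cannot be assigned to either gene by position alone. Because many worm transcripts are trans-spliced, an annotated start can lie some way inside the true one.

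Sequence around strong shared summits is shown first, since the 2 genes of a pair read the same bases. Each run covers 60 bp either side of a summit on the plus strand of ce11, from the RefSeq sequence, in lower case with matches to ACGTG or GCGTG on either strand in capitals (CACGT and CACGC are their reverse complements). The first pair of windows are the 2 summits (chrIV:4660462-4660582 and chrIV:4660670-4660790) between F29B9.11 and jmjd-1.2, a JmjC-domain histone demethylase gene. The next lie upstream of mdh-1, malate dehydrogenase (chrV:6517294-6517414), between jmjd-4, another JmjC gene, and mev-1, the cytochrome b subunit of succinate dehydrogenase (chrIII:10334105-10334225), and between rpl-15, a large-subunit ribosomal protein, and K11H12.8 (chrIV:654865-654985). The window between R08E5.1 and rips-1 (chrV:3771894-3772014) holds its only match at its far right end. The last 2 windows come from same-strand pairs, F32D8.13 with sec-61.G, a translocon subunit (chrV:10897314-10897434), and exos-9, an RNA exosome subunit, with pfd-5, a prefoldin subunit (chrIII:7198978-7199098), and hold none.
F29B9.11/jmjd-1.2, stronger summit: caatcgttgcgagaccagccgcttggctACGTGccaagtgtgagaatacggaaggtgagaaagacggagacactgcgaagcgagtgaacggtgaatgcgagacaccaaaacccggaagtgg
F29B9.11/jmjd-1.2, weaker summit: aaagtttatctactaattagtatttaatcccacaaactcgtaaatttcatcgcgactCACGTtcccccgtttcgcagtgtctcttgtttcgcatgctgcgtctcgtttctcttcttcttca
mdh-1/F46E10.3: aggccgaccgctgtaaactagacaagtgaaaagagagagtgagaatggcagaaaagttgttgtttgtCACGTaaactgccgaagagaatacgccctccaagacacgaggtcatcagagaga
jmjd-4/mev-1: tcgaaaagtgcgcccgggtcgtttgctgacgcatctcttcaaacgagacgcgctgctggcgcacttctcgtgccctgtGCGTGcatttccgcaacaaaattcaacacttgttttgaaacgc
rpl-15/K11H12.8: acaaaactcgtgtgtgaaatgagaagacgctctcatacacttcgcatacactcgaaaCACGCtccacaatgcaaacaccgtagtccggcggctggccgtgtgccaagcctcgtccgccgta
R08E5.1/rips-1: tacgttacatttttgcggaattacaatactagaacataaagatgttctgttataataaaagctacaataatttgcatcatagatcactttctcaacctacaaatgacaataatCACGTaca
F32D8.13/sec-61.G: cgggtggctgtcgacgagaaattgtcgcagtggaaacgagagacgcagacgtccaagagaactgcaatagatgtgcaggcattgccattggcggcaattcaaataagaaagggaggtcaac
exos-9/pfd-5: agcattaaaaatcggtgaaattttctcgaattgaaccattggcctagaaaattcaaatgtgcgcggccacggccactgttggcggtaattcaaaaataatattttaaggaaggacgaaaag

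Signal here is the authors' deposited value of a peak over the control alignment, in arbitrary units. It is not scaled between lists, so pooled and replicate values are given apart. T18D3.9 and T18D3.1, on chromosome X, shared the strongest peak, with a pooled signal of 2033, 729 in replicate 1 and 1304 in replicate 2. F29B9.11 and jmjd-1.2 followed with 1926 pooled, 711 in replicate 1 and 1219 in replicate 2. Their second summit, 261 bp from the jmjd-1.2 start where the first stood 469 bp away, had 994 pooled, 355 in replicate 1 and 632 in replicate 2. Both summits carried ACGTG, 30 bp and 1 bp from the summit.

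The mdh-1 and F46E10.3 peak had a pooled signal of 1818, with 666 in replicate 1 and 1172 in replicate 2. Its summit stood 828 bp from the mdh-1 start and 943 bp from the other, in an interval of 1771 bp, one of the widest. The jmjd-4 and mev-1 peak reached 1794, with 636 in replicate 1 and 1154 in replicate 2. That interval was only 259 bp long, so the summit stood 147 bp from jmjd-4 and 112 bp from mev-1. The peak between nifk-1, whose human counterpart is a nucleolar protein, and T04A8.8 had 1606 pooled, 547 in replicate 1 and 1059 in replicate 2. Between ndub-7, a complex I subunit, and mce-1, methylmalonyl-CoA epimerase, the signal was 1551 pooled, 525 in replicate 1 and 1026 in replicate 2. All 6 of these strongest intervals held ACGTG or GCGTG within 50 bp of the summit, at a distance between 7 bp (ndub-7) and 39 bp (nifk-1), and the order of the 6 was the same in both replicates.

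A strong peak did not need a match. The peak between R08E5.1 and rips-1, which encodes a partner of the HIF-1 regulator RHY-1, had 1106 pooled, 421 in replicate 1 and 670 in replicate 2, and no match within 50 bp. The ahsa-1 peak, beside the gene of an HSP-90 co-chaperone, had 1081 pooled, 375 in replicate 1 and 703 in replicate 2, also without one. Both windows hold an ACGTG match a few bases beyond 50 bp, as the rips-1 sequence above shows. Peaks of rpn-6.1, a proteasome lid subunit (838), rps-23, a small-subunit ribosomal protein paired with dpm-3 (733), and nhl-2, a TRIM-NHL protein paired with tag-340 (732), had no match either. The remaining peaks among the 20 strongest divergent ones had a match and pooled signals of 1369 (cblc-1, of cobalamin metabolism, with ZK546.19), 1254 (K01G5.10 with tasp-1, a protease gene), 914 (rpl-15), 891 (sdhd-1, a succinate dehydrogenase membrane subunit, with ilkp-1), 693 (coq-2, of ubiquinone synthesis, with F57B9.8), 684 (wbp-4 with F56G4.6), 643 (F25H9.6 with F25H9.7) and 614 (rpl-20 with Y17G9B.5). F25H9.6 and F25H9.7 start 15 bp apart, with the summit between them.

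The divergent summits sat in the space between the genes. The median distance between the 2 starts was 528 bp (quartiles 334 and 770, range 12 to 1863). In 455 of 489 pairs of starts (93.0%) the summit lay between them. With the interval cut into 3 equal parts, it stood in the middle part in 194 of those 455 (42.6%), in the part next to the minus-strand gene in 124 and in the part next to the plus-strand gene in 137. The middle part held 27.9% in intervals under 250 bp, 53.1% from 250 to 500 bp, 43.7% from 500 to 750 bp and 27.1% from 750 to 1000 bp. In longer intervals it held 41.1%, but there the 2 windows overlap only around the middle, which narrows where a shared summit can lie. The summit was nearer to the minus-strand start in 219 and nearer to the plus-strand start in 267. Distance to the nearest start had a median of 145 bp (quartiles 70 and 227) at divergent summits and 259 bp (quartiles 134 and 494) at single-gene summits. Outside any gene lay 422 of 489 divergent summits (86.3%) and 987 of 1359 single-gene summits (72.6%), in introns 26 and 253, and in 5′ UTRs 34 and 71. Summit position follows in part from the class, since a divergent interval is short and has few introns.

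**Figure D1:**
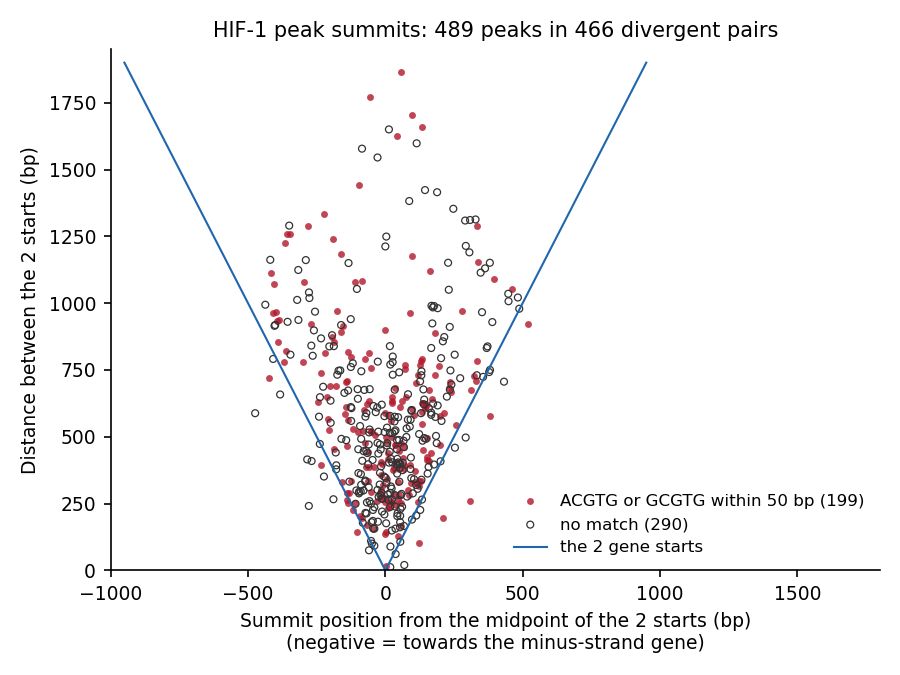
Position of each of the 489 divergent summits relative to the midpoint of its 2 gene starts (x axis, bp) against the distance between those starts (y axis, bp). Blue lines mark the starts, filled points the 199 summits with ACGTG or GCGTG within 50 bp and open points the 290 without. In 455 of 489 the point falls between the lines, and few intervals exceed 1000 bp.

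Divergent promoters held more HIF-1 peaks per base than single-gene promoters. Divergent windows made up 8.50% of all promoter window bases (2.22 Mb) and held 25.4% of the promoter peaks, or 221 peaks per Mb (the overlapping-heads peak included). Single-gene windows made up 89.7% (23.4 Mb) and held 70.6% of the peaks, or 58.0 per Mb. The order was the same on every chromosome, from 139 per Mb in divergent and 37.8 in single-gene windows on chromosome V to 325 in divergent and 69.1 in single-gene windows on chromosome III. The same order was seen within bins of distance to the nearest start. Within 99 bp of the nearest start there were 229 peaks per Mb in divergent windows (95% Poisson interval 196 to 266) and 56.0 in single-gene windows (49.1 to 63.6). From 200 to 299 bp there were 377 (308 to 457) and 88.9 (77.3 to 102), and beyond 500 bp 60.9 (33.3 to 102) and 38.0 (34 to 42.4), where the intervals overlap. These densities are descriptions over one joint peak list, and no test was run on them.

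Counted by gene, 961 of 3749 genes with a divergent neighbour starting within 999 bp had a promoter peak (25.6%, exact 95% interval 24.2 to 27.1), and 1375 of 16224 genes without one had (8.48%, 8.05 to 8.91). Across all genes the share was 11.7%, and 5.60% (1119 of 19973) had a shared-promoter peak. A shared peak counts for both genes, so these shares need not mean that both are bound. Among 3190 divergent pairs with starts up to 2000 bp apart, 466 had a shared peak (14.6%). Here the interval is that between the closest starts of the 2 genes, whereas for single summits it is that between the starts nearest the summit, which can be longer. The share was 64 of 413 (15.5%) for intervals of 0 to 249 bp, 172 of 580 (29.7%) for 250 to 499 bp, 118 of 520 (22.7%) for 500 to 749 bp, 63 of 397 (15.9%) for 750 to 999 bp and 49 of 1280 (3.83%) beyond. The longest intervals can carry a shared summit only in the stretch where both windows overlap.

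Chromosome X carried a smaller part of the divergent than of the single-gene peaks. It had 20 of the 489 divergent peaks (4.09%, 2.52 to 6.25) and 305 of the 1359 single-gene peaks (22.4%, 20.2 to 24.8). X held 5.59% of divergent window bases and 15.6% of single-gene window bases. Of the divergent pairs on X, 20 of 196 had a peak (10.2%, 6.35 to 15.3), against 446 of 2994 on the autosomes (14.9%, lower bound 13.6), with intervals that overlap. Among pairs 250 to 499 bp apart the order was the other way, with 12 of 29 on X (41.4%, 23.5 to 61.1) and 160 of 551 on the autosomes (29.0%, 25.3 to 33.0). Divergent windows on X held 162 peaks per Mb, more than on chromosome V (139) and fewer than on IV (194), II (227), I (291) and III (325). Of genes with a divergent neighbour within 999 bp, 25.4% had a promoter peak on X, against 25.6% on the autosomes. Single-gene windows on X held 83.4 peaks per Mb, the highest of the 6 chromosomes.

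Divergent peaks were stronger than single-gene peaks. Their pooled signal had a median of 192 (quartiles 129 and 307, range 95.1 to 2033), and single-gene peaks had a median of 161 (quartiles 120 and 251, highest 4447). Above the median of all promoter peaks, 171, lay 282 of 489 divergent peaks (57.7%, 53.2 to 62.1) and 629 of 1359 single-gene peaks (46.3%, 43.6 to 49.0), with an odds ratio of 1.58 (Fisher's exact test, two-sided, adjusted p = 7.51e-05 over 12 tests). Each replicate gave the same order, with medians of 72.6 at divergent and 65.2 at single-gene peaks in replicate 1, and 117 and 100 in replicate 2. The very strongest promoter peaks were single-gene ones. Among the 1765 strongest IDR peaks alone, the share above their own median was 55.0% for divergent and 48.2% for single-gene peaks, which did not pass (odds ratio of 1.31, adjusted exact p = 0.160).

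**Figure D2:**
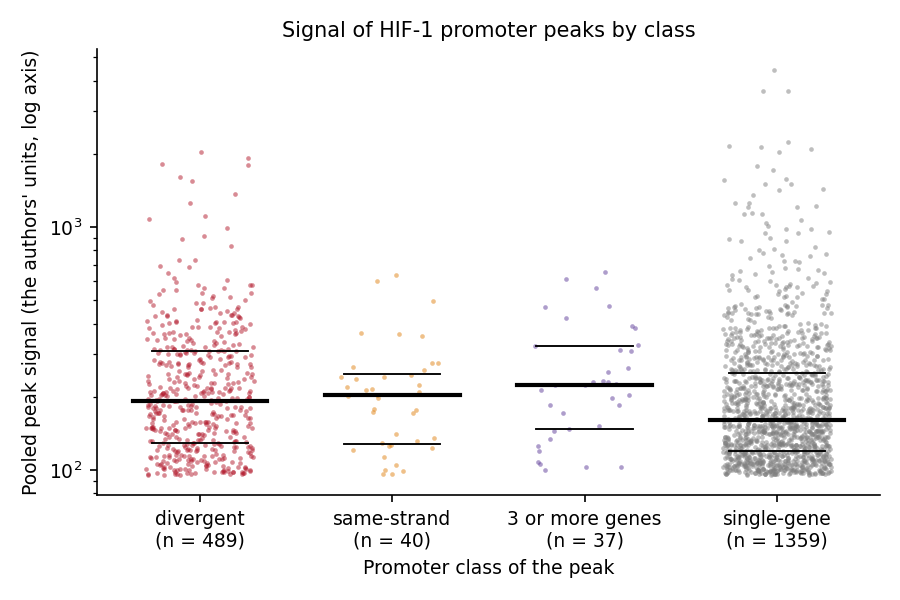
Pooled signal of each promoter peak on a log axis (the authors' units), for divergent, same-strand, 3-or-more-gene and single-gene peaks. Thick lines mark medians of 192, 202, 224 and 161, thin lines quartiles, and the strongest points belong to the single-gene class.

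Both replicates contained nearly all of them, which follows largely from the choice of IDR peaks for agreement between these replicates. The candidate list of replicate 1 holds 30000 regions, far more than the 3531 IDR peaks. A candidate region with its summit within 100 bp was found in both replicates for 474 of 489 divergent peaks (96.9%), 37 of 40 same-strand peaks, 37 of 37 peaks at 3 or more genes and 1311 of 1359 single-gene peaks (96.5%), compared with 96.1% of all IDR peaks. Across the 474 divergent peaks the replicate signals had a Spearman correlation of 0.829. A stricter count asked that the region rank among the 3531 strongest of each replicate. This count is a cut on signal rank, so it is not independent of the signal difference between the classes. It was met by 373 of 489 divergent peaks (76.3%, 72.3 to 80.0) and 960 of 1359 single-gene peaks (70.6%, 68.1 to 73.1), with 69.8% over all IDR peaks. The difference did not pass (odds ratio 1.34, adjusted exact p = 0.0558), but it did when summits had to agree within 50 bp (71.8% and 62.8%, odds ratio 1.50, adjusted exact p = 0.00117).

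**Figure D3:**
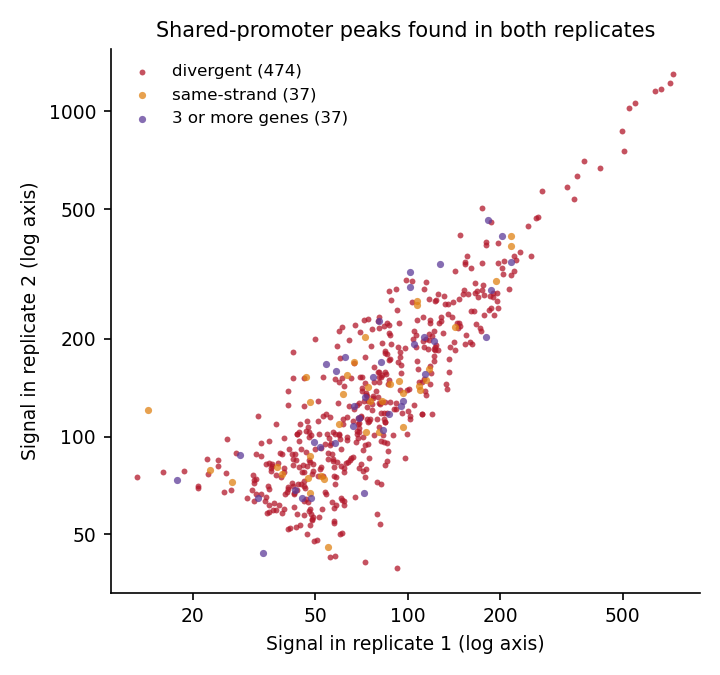
Signal of each shared-promoter peak in replicate 1 (x axis) and replicate 2 (y axis), both log axes in the authors' units, for the 474 divergent, 37 same-strand and 37 3-or-more-gene peaks found in both. The cloud rises along one diagonal, and same-strand peaks lie inside the divergent cloud apart from 1 with a replicate 1 signal of 14.3.

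The HIF-1 core was enriched at the summits of divergent peaks. ACGTG or GCGTG, on either strand, lay within 50 bp of 199 of 489 divergent summits (40.7%, 36.3 to 45.2). Flanking windows of equal width, 101 bp, placed 500 bp away on the left and on the right held it in 17.2% and 16.0% (exact McNemar test, two-sided, larger adjusted p of the 2 flanks 1.76e-14). In divergent promoter windows without a summit, 14.7% of such tiles had a match. Single-gene summits had it at 604 of 1359 (44.4%, 41.8 to 47.1), and over all promoter peaks 43.3%. Divergent and single-gene peaks did not differ past the 0.05 threshold (odds ratio of 0.858, adjusted exact p = 0.286). They did among the 1765 strongest IDR peaks, with 39.7% of divergent and 51.1% of single-gene summits (odds ratio 0.631, adjusted exact p = 0.00462), and with matches counted within 100 bp, at 54.2% and 61.2% (odds ratio 0.749, adjusted exact p = 0.0218).

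**Figure D4:**
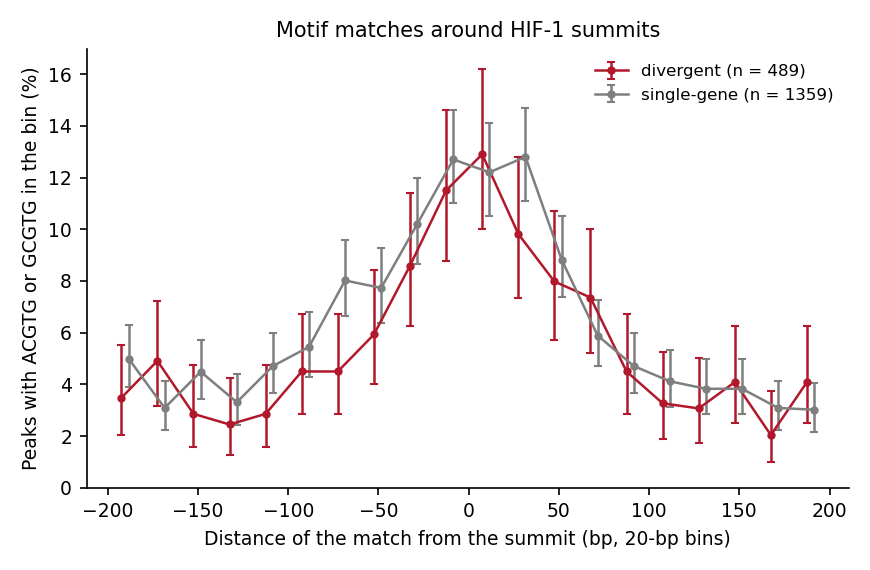
Share of peaks (y axis, %) with ACGTG or GCGTG in 20-bp bins of distance from the summit (x axis, bp), for 489 divergent and 1359 single-gene peaks. Bars are exact 95% intervals that cover counting error only. Both profiles peak at the summit and fall to a few percent beyond 100 bp.

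The nearest match lay a median of 18 bp from a divergent summit and 19 bp from a single-gene summit. With peaks cut into 3 equal groups by signal, a match lay at 44.8% of the strongest, 33.7% of the middle and 43.6% of the weakest divergent peaks. Among single-gene peaks it lay at 53.6% of the strongest, 40.2% of the middle and 39.5% of the weakest group. Intervals under 250 bp had a match at 16 of 56 summits (28.6%), and the 4 wider groups at 41.3% to 43.8%.

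Of the 2 forms of the core, ACGTG differed between the classes past the threshold and GCGTG did not. The 2 forms were not tested against each other. ACGTG lay at 86 of 489 divergent summits (17.6%, 14.3 to 21.3) and 356 of 1359 single-gene summits (26.2%, 23.9 to 28.6), an odds ratio of 0.601 (Fisher's exact test, adjusted p = 0.00107 over 10 motifs). GCGTG lay at 127 divergent (26.0%) and 310 single-gene summits (22.8%), with an odds ratio of 1.19 (adjusted exact p = 0.287). Promoter tiles without a summit held ACGTG in 9.44% of divergent and 8.72% of single-gene windows, and GCGTG in 5.89% of divergent and 5.47% of single-gene windows. The split was examined after the values were seen. It held outside chromosome X, with ACGTG at 16.4% of divergent and 26.5% of single-gene summits (odds ratio 0.546, adjusted exact p = 1.43e-04), and was lost with windows of 2000 bp (21.5% and 25.5%, adjusted exact p = 0.189).

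Of 8 other promoter sequences 3 were scarcer at divergent summits with the windows used here. All 3 lost the threshold with windows of 2000 bp (odds ratios of 0.753 for GAGAGAG, 0.736 for CTGCGTC and 0.610 for GATAAG, adjusted exact p = 0.189 each) and among the 1765 strongest IDR peaks (adjusted exact p = 0.0550, 0.0645 and 0.146). GAGAGAG, the repeat read by GAGA factors, lay at 6.75% of divergent and 12.7% of single-gene summits (odds ratio 0.496, adjusted exact p = 0.00107). CTGCGTC, a sequence seen in many worm promoters, lay at 6.75% and 12.5% (odds ratio 0.506, adjusted exact p = 0.00124). GATAAG, the core read by GATA factors such as the intestinal ELT-2, lay at 2.86% and 6.40% (odds ratio 0.431, adjusted exact p = 0.00605). In divergent windows GATAAG was rarer at the summits than in tiles without one (5.09%), whereas at single-gene summits it was more frequent than in their tiles (4.23%). CACGTG, the E-box that contains ACGTG on both strands, lay at 3.48% of divergent and 6.03% of single-gene summits (adjusted exact p = 0.0690), and passed in 4 alternatives, among them outside chromosome X (3.20% and 6.45%, adjusted exact p = 0.0197). The remaining 4 did not differ past the threshold, namely GGGCGG, an SP-type GC box (7.57% and 6.77%, tiles 1.63% and 1.83%), TGACGTCA, the CREB site (2.04% and 1.55%, tiles 0.440% in divergent and 0.55% in single-gene windows), GTAAACA, the forkhead core (1.43% and 2.35%, tiles 1.54% and 1.21%), and TTCNNGAA, a heat-shock element unit (4.70% and 3.38%, tiles 6.78% and 6.96%). All motifs were read on both strands, and a match is a run of letters, not a measured site. GAGAGAG and CTGCGTC lay in 1.30% and 1.08% of divergent tiles and in 1.52% and 0.863% of single-gene tiles.

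Same-strand pairs fell into genes that follow each other and genes that overlap. In 23 of 40 the genes stood one after the other with 39 to 296 bp between them (median 102), and their starts were a median of 686 bp apart. In the other 17 the genes overlapped and their starts were a median of 97.0 bp apart. The smaller gene of 12 of those 17 spans 300 bp or less (30 to 195 bp), as the annotated open reading frames C34D10.5 next to unk-1 and C53H9.4 next to egl-30 do. Genes that short number 419 of 19973. They took part in 5 of 489 divergent peaks (1.02%), 12 of 40 same-strand peaks and 7 of 37 peaks at 3 or more genes (18.9%). Without them 28 same-strand peaks were left. The summit lay upstream of both starts in 38 of 40.

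The strongest same-strand peak belonged to unk-1, an Unkempt-family zinc finger gene, and C34D10.5, with 632 pooled, 217 in replicate 1 and 415 in replicate 2. The egl-30 gene, which encodes a Gq alpha subunit, and C53H9.4 had 599 pooled, 217 in replicate 1 and 386 in replicate 2, with GCGTG 2 bp from the summit. F32D8.13 and sec-61.G had 496 pooled, 193 in replicate 1 and 300 in replicate 2, with the summit 231 bp upstream of sec-61.G and 831 bp upstream of F32D8.13. A similar arrangement, in which one gene lies between the summit and the start of the next, held for exos-9 and pfd-5 (367), rps-28 and Y41D4B.4 (361), sas-4, a centriole assembly gene, and F10E9.11 (354), F44E2.8 and F44E2.9 (276), ddp-1, of mitochondrial import, and ttc-7 (266), and swp-1 and rpl-23 (258). The Tubby-related gene tub-2 and Y71G12A.5, an annotated gene inside the short class, had 275. The first 3 of these 10 had the 3 highest values of the class in each replicate.

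The same-strand peaks passed no test against the other classes with the windows and genes used here, and passed for high signal in 2 alternatives. Their median signal was 202 (quartiles 128 and 248), and 26 of 40 lay above 171 (65.0%, 48.3 to 79.4), with an odds ratio of 2.16 against single-gene peaks (46.3%, adjusted exact p = 0.0569). Without the short genes 71.4% of 28 did (single-gene 46.4%, odds ratio 2.89, adjusted exact p = 0.0280), and with windows of 2000 bp 56.7% did (single-gene 45.5%, odds ratio 1.57, adjusted exact p = 0.0440). ACGTG or GCGTG lay at 16 of 40 (40.0%, 24.9 to 56.7), against 4 of 40 left and 8 of 40 right flanks (larger adjusted p = 0.193, exact McNemar test), 13.3% of tiles, and 44.4% of single-gene summits (odds ratio 0.833, adjusted exact p = 0.757). Divergent and same-strand peaks compared directly had odds ratios of 1.03 for the match (adjusted exact p = 1.00), 0.734 for high signal (adjusted exact p = 0.544) and 0.934 for the strict replicate count (76.3% and 77.5%, adjusted exact p = 1.00). The interval of the same-strand match share is wide enough to hold both a value well below and one well above that of single-gene peaks. The strict count was 31 of 40 in same-strand and 70.6% in single-gene peaks (odds ratio 1.43, adjusted exact p = 0.544).

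The 37 peaks at 3 or more genes, all with genes on both strands, had a median signal of 224 (quartiles 147 and 323), and 13 had a match (35.1%, 20.2 to 52.5). The strongest lay between cux-7, C07H6.2 and lig-4, DNA ligase IV, with 655 pooled, 183 in replicate 1 and 465 in replicate 2. Next were prp-19, a spliceosomal ubiquitin ligase, with K10D2.5 and emb-1 (610 pooled, 203 in replicate 1, 414 in replicate 2), and rab-7, a late endosomal GTPase, with W03C9.5 and mex-1, a germline zinc finger gene (561 pooled, 216 in replicate 1, 345 in replicate 2). Their window density was 336 peaks per Mb over 0.110 Mb. The single peak with overlapping heads, at Y54E10BR.2 and rpb-7, an RNA polymerase II subunit, had 133 pooled, 43.5 in replicate 1 and 91.5 in replicate 2.

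Several lists of core cell machinery had a large share of their genes at shared peaks. The lists were chosen with earlier results of these data known, so counts are given beside those for all genes and nothing was tested. Over all genes 1119 of the 2336 with a promoter peak had a shared one. Of all 19973 genes, 5.60% had a shared peak and 11.7% any promoter peak. Cytosolic ribosomal proteins had the highest number, with 43 of 81 genes at a shared peak and 62 at any promoter peak. By share, 53.1%, they came after the CCT chaperonin genes (62.5%). The strongest were rpl-15 (914), rps-23 (733), rpl-20 (614) and rps-19 (577, with hsr-9). A divergent neighbour starting within 2000 bp was present at 65.4% of these genes and at 29.2% of all genes. The core lay at 17 of their 41 shared peaks, beside 229 of all 567. In 3 cases both genes of the promoter were ribosomal, rps-10 with rpl-24.1 (204), rpl-39 with rps-30 and C26F1.3 (311), and rps-14 with rpl-36 and ndab-2 (197).

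Of all genes with a promoter peak, 47.9% had a shared one. The 5 lists given next were above that value, though aminoacyl-tRNA synthetases (55.6%, 5 of 9 genes) lay close to it. Each list also has divergent neighbours more often than the 29.2% of all genes. They were present at 100% of CCT, 64.4% of spliceosome, 54.5% of translation factor, 48.4% of synthetase and 39.1% of polymerase genes. All 5 of the 8 CCT chaperonin genes with a promoter peak had a shared one, led by cct-8 (458), cct-7 (398), cct-6 (181) and cct-2 (169). Spliceosome and Sm protein genes had 24 shared of 27 with any peak among 59, with prp-19, snr-1 (535, with snx-13), prp-8 (279) and rsp-1, which shares its peak of 274 with rsp-2. The pair snr-3 and rsp-5 (160) was the second with both genes in that list. RNA polymerase subunits had 5 of 5 among 23, with rpoa-12 (242, following pas-1), rpac-19 (241, with tbg-1), rpb-11 (215) and rpb-7. Of the 5, 4 were same-strand and 0 divergent, so the 39.1% with a divergent neighbour does not bear on this count. Translation factors had 13 of 21 among 44, with iff-2, an eIF5A gene (605), eef-2 (375), eif-3.E (332) and eef-1G (314). Aminoacyl-tRNA synthetases had 5 of 9 among 31, with ears-2 (443), mars-1 (238), nars-1 (180) and rars-1 (123). No match lay at any of those 5, beside a match at 229 of all 567 shared peaks.

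Genes of protein turnover, trafficking and division also have divergent neighbours more often than all genes, at 72.7% of proteasome, 26 of 52 heat shock, 49.2% of trafficking and 59.1% of cell cycle genes. Proteasome subunits had 12 shared of 17 among 33, with rpn-6.1, rpn-3 (291, whose divergent partner is the chaperone gene hsp-110), pbs-1 (246) and pas-1 (242). Heat shock and J proteins had 12 of 20 among 52, with hsp-90 (560), hsp-60 (477), dnj-13 (457) and dnj-19 (411), and the core at 2 of 14 shared peaks. For the other lists of this group the core lay at 4 of 13 proteasome, 10 of 27 trafficking and 4 of 15 cell cycle peaks. It lay at 2 of 2 autophagy and 3 of 3 vacuolar ATPase peaks, and at 229 of all 567 shared peaks. Membrane trafficking genes had 26 of 41 among 120, with rab-7, vps-51 (551, with the Rb gene lin-35), snx-13 (535) and sec-61.G. Cell cycle and replication genes had 14 of 24 among 66, with mcm-10 (445), pola-1 (313), psf-1 (301) and cdc-14 (299). Autophagy genes had 2 of 14 among 32, atg-3 (171) and lgg-3. Vacuolar ATPase genes had 3 of 8 among 20, vha-8 (218), vha-1 (180) and vha-4 (108). Among genes with a promoter peak these were 14.3% of autophagy and 37.5% of vacuolar ATPase genes, below the 47.9% of all genes. By gene, 6.25% of autophagy and 15.0% of vacuolar ATPase genes had a shared peak, against 5.60% of all genes. A divergent neighbour was present at 15.6% of autophagy and 40.0% of vacuolar ATPase genes.

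Genes of the tricarboxylic acid cycle and respiratory chain had strong shared peaks, with medians of 300 and 304 beside 196 over all 567. The core lay at 40.4% of all shared peaks. The 2 lists overlap, with mev-1 and sdhd-1 in both, so their counts are not separate results. A divergent neighbour was present at 52.0% of tricarboxylic acid cycle and 61.3% of respiratory chain genes, beside 29.2% of all genes. The share of genes with a shared peak was 5.60% over all genes, and 47.9% over those with a promoter peak. Of list genes with a promoter peak, 61.5% of tricarboxylic acid cycle, 63.6% of respiratory chain and 68.8% of mitochondrial ribosomal protein genes had a shared one. For mitochondrial import it was 6 of 8 genes. The differences from 47.9% were not tested. Tricarboxylic acid cycle genes had 8 shared of 13 with any peak among 25, led by mdh-1 (1818), mev-1 (1794), sdhd-1 (891) and sdhb-1 (373, with cup-15), and the core lay at 7 of the 8. Respiratory chain and ATP synthase genes had 21 of 33 among 75, led by mev-1, ndub-7, sdhd-1 and coq-2, with the core at 13 of 22 shared peaks. The genes of 3 succinate dehydrogenase subunits, mev-1, sdhd-1 and sdhb-1, each shared their peak with a gene outside that enzyme. Mitochondrial import genes had 6 of 8 among 16, with hsp-60, ddp-1, tomm-7 (230) and tin-13 (201), and mitochondrial ribosomal proteins 11 of 16 among 70, with mrpl-18 (369), mrps-35 (363), mrps-7 (236) and mrpl-34 (203).

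The best-known targets of HIF-1 were not among these genes. Of 15 genes reported to depend on HIF-1 in hypoxia, 11 had a promoter peak and 0 a shared one, and 0 of the 15 have a divergent neighbour. Without such a neighbour a gene cannot have a divergent shared peak, and 489 of the 567 shared peaks were divergent. The 0 of this list is therefore largely set by the position of its genes and is no result about binding. Of 11 genes of the HIF-1 pathway itself, 4 had a promoter peak and 0 a shared one, though 4 have a divergent neighbour. Over all genes 11.7% had a promoter peak and 5.60% a shared one, so lists of 15 and 11 genes may hold 0 at the latter share. Glycolysis and gluconeogenesis genes had a promoter peak at 16 of 27 and a shared one at 2 (7.41%, beside 5.60% of all genes). Among those with a promoter peak 12.5% had a shared one, beside 47.9% over all genes, and 33.3% of the list has a divergent neighbour. The 2 were hxk-2, hexokinase (186, with cdk-9), and pdhb-1 (130, with dyf-3), neither with a match. JmjC demethylases had 3 shared of 6 with any peak among 13, beside 47.9% over all genes, jmjd-1.2, jmjd-4 and jmjc-1 (574).

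Of 4 large families, 3 had a smaller share of genes at shared peaks than the 5.60% of all genes, and histones (8.47%) a larger one. Few chemoreceptors (0.766%) and collagens (2.21%) had any promoter peak, beside 9.29% of nuclear hormone receptors and 11.7% of all genes. Among genes with a promoter peak, chemoreceptors and collagens were not below the 47.9% of all genes with a shared one, and nuclear hormone receptors were. A divergent neighbour was present at 17.1% of nuclear hormone receptor, 22.9% of chemoreceptor and 25.4% of collagen genes, beside 29.2% of all genes. Nuclear hormone receptors had 2 shared of 25 with a promoter peak among 269, nhr-47 (411) and nhr-142 (361), chemoreceptors 7 of 10 among 1305, led by sri-5 (211), srx-21 (177), srh-83 (167) and sre-1 (156), and collagens 2 of 4 among 181, col-71 (336) and col-38 (271, with the ribosomal gene rpl-5). Histone genes had 5 of 7 among 59, at only 3 shared peaks, and a divergent neighbour at 76.3% of the 59. They were htz-1 (430), his-67 with his-68 (185), and the divergent pair his-61 with his-62 (114). Several such genes are partners of a core gene, as nhr-47 is of dnj-19 and sri-5 of rsr-1, a splicing gene.

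**Figure D5:**
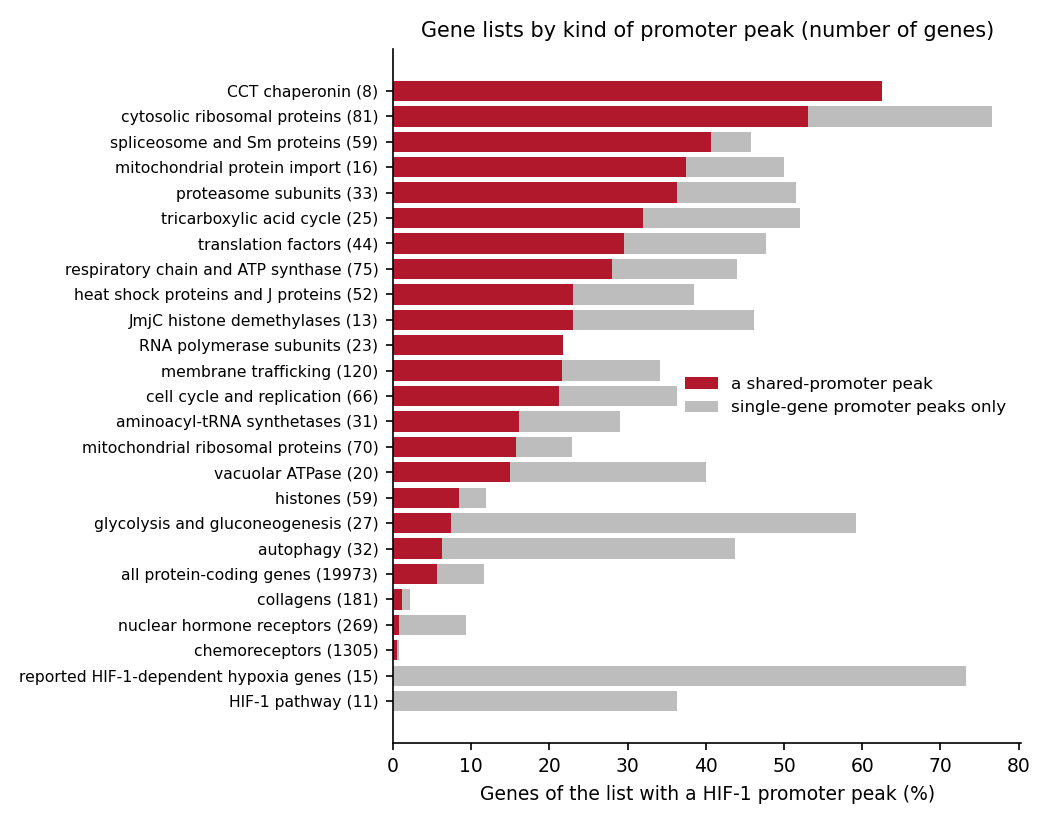
Share of the genes of each list (x axis, %) with a HIF-1 promoter peak, split into genes with a shared-promoter peak (red) and genes with single-gene promoter peaks only (grey), lists ordered by the red share and the number of genes in brackets. CCT and ribosomal genes have the longest red bars, and the reported hypoxia genes and the HIF-1 pathway have none.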

How the data were processed

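The peaks came from whole C. elegans L4 larvae, 2 biological replicates per the labels. The authors deposited, per the file headers and file lists, a candidate list for each replicate and an IDR-thresholded list over both, on ce11, each with a signal (coverage over the control alignment, arbitrary units) and a summit offset. Aligner, peak caller and versions were not given in the sources used here. Files hold no read counts, so depth is unknown, and exact (Clopper-Pearson) 95% intervals cover counting error only.

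Genes and 29784 transcript starts of 19973 protein-coding genes were taken from Ensembl release 115, sequence from RefSeq. Classes of promoter peaks were compared with Fisher's exact test, and summits with flanks by the exact McNemar test (two-sided, 12 p-values Benjamini-Hochberg adjusted together). These tests compare peaks of one joint list, not samples. Neighbouring peaks of one promoter are not independent, and 23 of the 466 divergent gene pairs held 2 peaks. A further 10 motifs were compared in the same way after the values had been seen, adjusted over the 10. Members and gene lists were chosen with earlier results of these data known. Genes named are those at the 20 strongest divergent and 10 strongest same-strand peaks, the 3 strongest of other classes, up to 4 per list, and promoters with 2 genes of one list. Of the 567 members, 30 had a start more than 950 bp away, and 50 bp more of upstream window would have added 13. Scripts used Python 3.11.15, NumPy 2.4.6, SciPy 1.17.1 and Matplotlib 3.10.9, and the tests were checked on simulated data.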

Additional observations from a re-analysis of the deposited data

How the results depend on the processing

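Alternatives covered window size, starts, peak strength, single replicates, repeated intervals, 1 peak per gene set, the distance from small RNA genes, motif width, signal threshold and replicate distance. Leaving out chromosome X, leaving out genes of 300 bp or less, and all the single-motif comparisons were chosen after seeing the data. Depth could not be weighed, since no counts were given. No paired analysis was possible because there is 1 group. The number of shared-promoter peaks was 376 with 500 bp upstream, 865 with 2000 bp and 354 among the 1765 strongest IDR peaks.

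Divergent against single-gene peaks, in odds ratios: the high-signal difference lost the threshold only among the strongest peaks (1.31). The strict replicate difference passed it with 2000 bp (1.31), 1 peak per gene set (1.36), no distance from small RNA genes (1.35), summits within 50 bp (1.50), outside X (1.37) and without short genes (1.36). The core was past it, lower at divergent summits, among the strongest peaks (0.631) and within 100 bp (0.749), and without 1 replicate its ratio ranged between 0.796 and 1.06. ACGTG alone lost it at 2000 bp (0.800). GCGTG alone was past it, higher at divergent summits, within 25 bp (1.52) and without replicate 2 (1.42, adjusted exact p = 0.0172), was at 1.22 without replicate 1, and turned among the strongest peaks (0.904). The threshold was also lost by GAGAGAG with 2000 bp (0.753) and the strongest peaks (0.513), and by CTGCGTC without replicate 2 (0.691, adjusted exact p = 0.140), with 2000 bp (0.736) and the strongest peaks (0.560). GATAAG lost it with 2000 bp (0.610), the strongest peaks (0.445) and within 25 bp (0.629). Of the uncalled motifs, CACGTG passed, lower at divergent summits, with 500 bp (adjusted exact p = 0.0345), without replicate 1 (0.466, adjusted exact p = 0.0159), within 100 bp (0.497) and outside X (0.479), and GGGCGG (1.44) and TTCNNGAA (1.50) passed within 100 bp. CACGTG turned at 2000 bp (1.08), GGGCGG among the strongest peaks (0.733), TTCNNGAA within 25 bp (0.832) and TGACGTCA within 100 bp (0.814) and outside X (0.945). Without 1 replicate GGGCGG ranged between 0.878 and 1.27 and TTCNNGAA between 0.937 and 1.30.

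Same-strand against single-gene peaks: high signal was past the threshold with 2000 bp (1.57) and without short genes (2.89), and turned among the strongest peaks (0.672) and for the upper quartile (0.868). The core turned with 500 bp (1.53) and ranged between 0.655 and 1.04 without 1 replicate. The strict count turned with 2000 bp (0.990). The core exceeded the flanks at same-strand summits by 23.3 points with 2000 bp, past the threshold, and by between 2.56 and 27.9 points without 1 replicate (adjusted exact McNemar p = 0.0380 for the higher).

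Divergent against same-strand peaks, never past the threshold, turned for the core with 500 bp (0.553), 2000 bp (0.999), the strongest peaks (0.899) and within 100 bp (0.874), for high signal with 2000 bp (1.03), the strongest peaks (1.95) and the upper quartile (1.91), and for the strict count with 500 bp (1.23), 2000 bp (1.33), 1 peak per gene set (1.04), no distance from small RNA genes (1.00) and summits within 50 bp (1.09). Without 1 replicate the core ranged between 0.762 and 1.61 and high signal between 0.910 and 1.52. Among the strongest peaks all same-strand peaks met the strict count, so its ratio to single-gene peaks has no value. The causes were not tested. A further 252 recomputed values kept their direction and side of the threshold.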

Other observations

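The windows of sec-61.G, exos-9 and F44E2.8 hold TTGGCGG, a sequence of the kind read by E2F factors. Over the whole class it lay within 50 bp of 4 of 40 same-strand summits (95% interval 2.79 to 23.7%) and in 0 of their flanks, against 10 of 489 divergent summits (2.04%, 0.985 to 3.73), 0 of 37 summits at 3 or more genes and 30 of 1359 single-gene summits (2.21%, 1.49 to 3.14). Tiles without a summit held it in 1.08% of same-strand, 1.18% of divergent and 1.07% of single-gene windows. The sequence was read off the data, rests on 4 peaks, and was not tested.

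Peak width had a median of 311 bp at divergent, 326 bp at same-strand and 250 bp at 3-or-more-gene peaks, and 416 bp at single-gene peaks. GC content around the summit had a median of 47.5% at divergent, 44.6% at same-strand and 46.5% at single-gene summits. A second match was present at 53 divergent summits (10.8%), 4 of 40 same-strand summits, 0 summits of 3 or more genes and 191 single-gene summits (14.1%).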
